A study of Mus musculus with 6 samples.

Results

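The mouse mitochondrial chromosome held 37 of the 57180 genes in the expression table, and all 37 were taken by their position alone, whatever their values. They were 2 rRNA genes, 13 mRNA genes and 22 tRNA genes. They were measured by RNA-sequencing in 6 libraries of primary hepatocytes from male mice: 3 of the genotype LOXP, from STING floxed animals, and 3 of the genotype KO, from STING liver-specific knockout animals, in which Cre was driven by the Albumin promoter. Cells of both genotypes were kept in MEM alpha with 0.1 µM dexamethasone and 10% fetal bovine serum and received palmitic acid (PA) at 0.1 mM for 24 h, so that no untreated cells enter any comparison. The labels give no age and do not say whether the 3 libraries of a genotype came from separate animals, and the p-values therefore measure only the spread between these libraries.

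Mitochondrial DNA is a small circle that is transcribed along nearly its whole length from a promoter on each strand. The long precursor RNAs are cut mostly at tRNAs, which lie between the other genes, and yield the rRNAs of the mitochondrial ribosome, the mRNAs of respiratory chain and ATP synthase subunits, and the tRNAs that decode them. Most mRNAs then receive a poly(A) tail, and in human cells the mRNA of ND6 is known to lack one. The 28 genes annotated on the plus strand, both rRNAs and 12 mRNAs among them, are transcribed from the heavy-strand promoter. The other 9, mt-Nd6 and 8 tRNAs, lie on the minus strand and come from the light-strand promoter. Hepatocytes are rich in mitochondria, and mtDNA that reaches the cytosol is a known ligand of cGAS, the sensor that signals through STING.

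The ends and overlaps of the genes that the results turn on are shown first, because neighbours that touch or share bases also share reads. Sequences are those of GENCODE M21 (build GRCm38), in which all 37 genes have the positions and lengths given in the table, whose build is GRCm39 in the submitters' processing notes. The last 30 bases of each mRNA are written 5′ to 3′ with the bases of the stop codon that the gene itself holds in capitals. Of the 13 mRNA genes, 10 end in a whole stop codon and 3 end in a T that polyadenylation completes. The positions are chrMT:13552-13581 on the minus strand for mt-Nd6, and on the plus strand chrMT:7940-7969 for mt-Atp8, chrMT:9361-9390 for mt-Co3 and chrMT:15259-15288 for mt-Cytb.
mt-Nd6: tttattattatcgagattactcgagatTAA
mt-Atp8: tatttgcctcattcattaccccaacaaTAA
mt-Co3: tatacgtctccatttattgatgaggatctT
mt-Cytb: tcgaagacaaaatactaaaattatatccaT

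The rRNA genes end where a tRNA gene begins, with no base between them. The last 30 bases of mt-Rnr1 (chrMT:995-1024) stand before mt-Tv, and those of mt-Rnr2 (chrMT:2646-2675) stand before mt-Tl1, shown whole (chrMT:2676-2750). For mt-Tw (chrMT:4950-5016), also shown whole, capitals mark the 2 bases shared with the stop codon of mt-Nd2.
mt-Rnr1: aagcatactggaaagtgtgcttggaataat
mt-Rnr2: atacgtacaccctctaacctagagaaggtt
mt-Tl1: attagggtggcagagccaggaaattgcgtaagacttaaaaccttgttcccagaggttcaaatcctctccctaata
mt-Tw: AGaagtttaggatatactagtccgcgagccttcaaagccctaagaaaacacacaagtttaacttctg

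Overlaps of mRNA genes are of both kinds. The genes mt-Atp8 and mt-Atp6, whose proteins are ATP synthase subunits made from 1 bicistronic mRNA, share 43 bases of the plus strand (chrMT:7927-7969), with the first codon of mt-Atp6 in capitals. The genes mt-Nd5 and mt-Nd6 run towards each other and share their last 14 bases (chrMT:13552-13565), written here on the plus strand with the stop codon of mt-Nd5 in capitals at the right and the reverse complement of that of mt-Nd6 in capitals at the left. The strand setting of the counting is not given in the sources used here, and without strand, reads of mt-Nd6 and of RNA antisense to it cannot be told apart.
mt-Atp8 and mt-Atp6: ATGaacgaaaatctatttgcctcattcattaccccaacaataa
mt-Nd5 and mt-Nd6: TTAatctcgagTAA

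The libraries held 14726983 to 18536985 counted reads, with scaling factors (trimmed mean of M values, TMM) of 0.973 to 1.02. The targeted gene Sting1 had 19, 16 and 23 counts in LOXP and 24, 23 and 15 in KO, and its groups overlapped (log2 difference -0.08, SE 0.30, edgeR adjusted p = 0.883). Its level was low, at a mean of 0.183 FPKM in LOXP and 0.178 in KO. By RT-PCR the paper reports that knockout hepatocytes had lost Sting mRNA. The part of the gene that was deleted is not given in the labels, so these counts do not check the labels. KO below means the libraries labelled KO. Pairs of libraries of a genotype differed by 7.58 to 16.1 times the counting noise (chi-square per degree of freedom), so none was a copy of another. Hepatocyte markers were abundant in all 6 libraries, with Alb, the gene of albumin, at a mean of 7106 FPKM, Apoa1 at 1115 and Serpina1a at 687. FPKM is fragments per kilobase of gene, scaled to the total of counted reads.

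Counts of all genes were fitted with edgeR, and 14151 genes passed the filter on low counts. Of the 37 mitochondrial genes, 18 passed: both rRNAs, all 13 mRNAs and 3 of the 22 tRNAs. At an adjusted p under 0.05, 2 members rose in KO (mt-Atp8 and mt-Co3) and 5 fell (mt-Rnr1, mt-Rnr2, mt-Nd6, mt-Tl1 and mt-Tw), while 11.5% of all tested genes rose and 11.6% fell. The tRNA mt-Tw passed the filter through its LOXP counts alone. Of the 17 members with at least 10 counts in every library, 2 rose and 4 fell. The study's criteria (a change of over 1 on the log2 scale, an adjusted p under 0.05 and a mean above 1 FPKM) were met by 3 members in the lower direction, mt-Rnr1, mt-Nd6 and mt-Tw, against 1.49% of all tested genes, and by 0 members in the higher direction, against 0.558%. Scaled CPM values of the groups did not overlap for 10 members, 3 higher and 7 lower in KO, against 40.7% of all tested genes in either direction. The last 2 tallies include mt-Tw among the lower members. Its place in the fit rested on its LOXP counts, so it lends them no support.

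**Figure D1:**
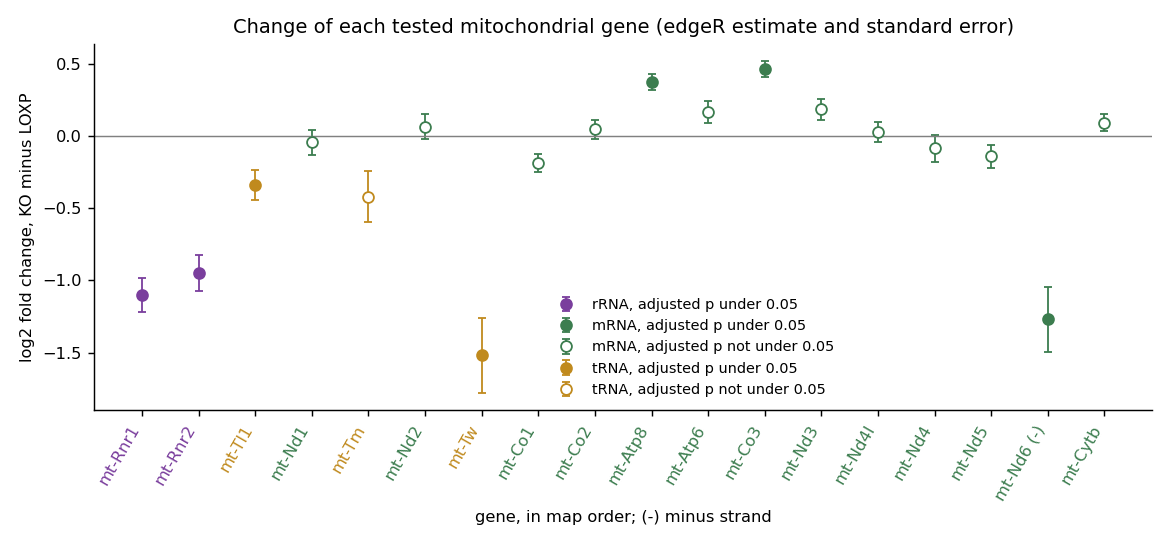
log2 fold change (vertical axis, KO minus LOXP, edgeR estimate with a standard error derived from its F test, 3 libraries a group) of the 18 tested mitochondrial genes in map order. Filled points have an adjusted p under 0.05: both rRNAs, mt-Tl1, mt-Tw and mt-Nd6 lie below the zero line, and mt-Atp8 and mt-Co3 above it.

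Both rRNAs were lower in KO. The small-subunit rRNA gene mt-Rnr1 (chrMT:70-1024, plus strand) had 459, 336 and 354 FPKM in LOXP and 202, 178 and 169 in KO. All 3 KO values lay below the lowest LOXP value, and the library LOXP1 was the highest. The change was -1.10 on the log2 scale (SE 0.12, edgeR adjusted p = 0.000462), so that the fitted level fell by 53.4%. The large-subunit rRNA gene mt-Rnr2 (chrMT:1094-2675, plus strand) had 216, 172 and 185 FPKM in LOXP and 120, 96.7 and 87.5 in KO. Its groups did not overlap either, with a change of -0.95 (SE 0.12, edgeR adjusted p = 0.00123). Leaving out each library in turn gave changes of -1.18 to -0.96 for mt-Rnr1 and -1.08 to -0.84 for mt-Rnr2, all with an adjusted p of at most 0.00806. These counts are of the RNA that entered the library, and whether the libraries were selected for poly(A) or depleted of rRNA is not given in the sources used here.

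**Figure D2:**
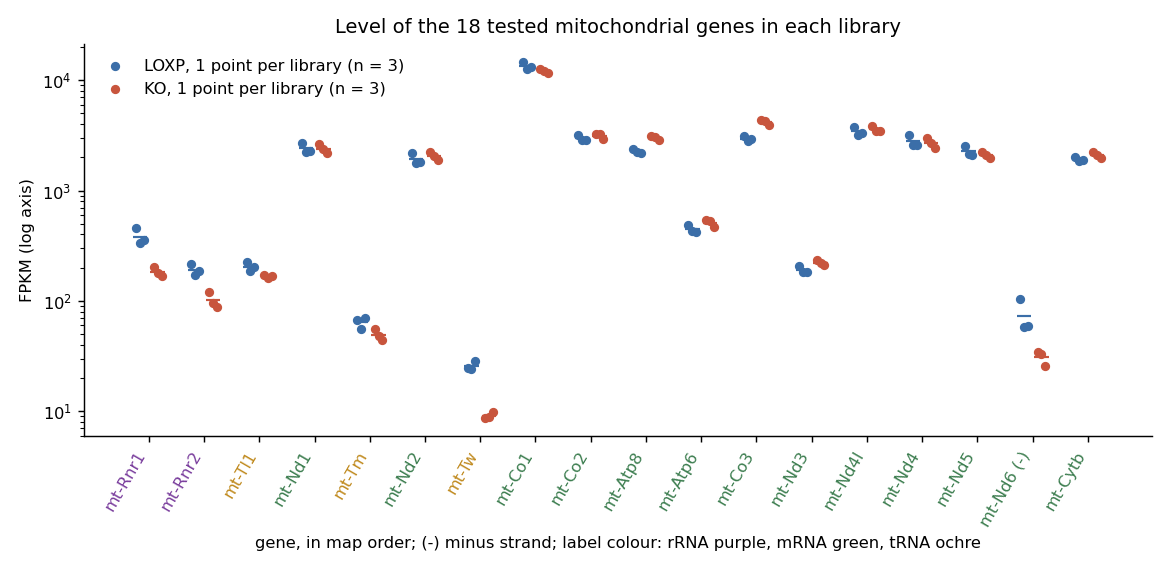
FPKM (log axis) of the 18 tested mitochondrial genes, 1 point per library with the group mean as a line. The KO points of mt-Rnr1, mt-Rnr2, mt-Tl1, mt-Tw and mt-Nd6 lie wholly below the LOXP points, and those of mt-Tm all but touch them from below. Those of mt-Atp8, mt-Co3 and mt-Nd3 lie wholly above, and mt-Co1 is the highest gene in every library.

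The 12 plus-strand mRNAs had log2 changes from -0.19 to 0.46 with a median of 0.05, against -0.002 for all tested genes. Of them 8 had a point estimate above 0 and 4 below it, and only mt-Atp8 and mt-Co3 passed the test in the edgeR fit described here. Their levels spanned a 61.8-fold range between the highest gene, mt-Co1, and the lowest, mt-Nd3. The cytochrome c oxidase subunit gene mt-Co1 stood apart at 13479 ± 1107 FPKM in LOXP (mean ± SD, n = 3), while 9 other plus-strand mRNAs had LOXP means between 1924 and 3433 FPKM. Neighbours in that order often lay within each other's SD, as for mt-Nd5 (2276 ± 238) and mt-Atp8 (2273 ± 95.7). In LOXP mt-Co3 was the 4th of the mRNAs by mean level, and in KO, at 4168 ± 231, it was the 2nd.

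Complex IV passes electrons to oxygen, and its 3 mitochondrial subunits did not share a direction. The mRNA of mt-Co3 (chrMT:8607-9390) had 3119, 2826 and 2915 FPKM in LOXP and 4345, 4253 and 3907 in KO. The lowest KO library lay above the highest LOXP library, and the change was 0.46 (SE 0.06, edgeR adjusted p = 0.00105), a rise of 37.8%. The mRNA of mt-Co1 (chrMT:5328-6872) had 14703, 12546 and 13188 FPKM in LOXP and 12671, 12067 and 11582 in KO. Its FPKM groups overlapped in 1 library, its scaled CPM groups did not, and at -0.19 (SE 0.06, edgeR adjusted p = 0.0564) it did not pass the test. The mRNA of mt-Co2 (chrMT:7013-7696) had 3176, 2861 and 2890 FPKM in LOXP and 3288, 3237 and 2906 in KO, with overlapping groups and a difference of 0.04 (SE 0.06, edgeR adjusted p = 0.669).

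The ATP synthase pair is translated from a common mRNA. The part read as mt-Atp8 (chrMT:7766-7969) had 2383, 2227 and 2210 FPKM in LOXP and 3095, 3091 and 2865 in KO. Its groups were separate, with a change of 0.37 (SE 0.06, edgeR adjusted p = 0.00234), a rise of 29.5%. The part read as mt-Atp6 (chrMT:7927-8607) had 484, 433 and 422 FPKM in LOXP and 537, 529 and 472 in KO. The lowest KO library lay within the LOXP range, and the difference of 0.16 (SE 0.07, edgeR adjusted p = 0.148) did not pass. In the library LOXP1 mt-Atp6 was thus listed at 484 FPKM and mt-Atp8 at 2383, although both stand on the same RNA. How reads in the 43 shared bases were assigned is not given, and a near-identical nuclear copy of mt-Atp6 took almost as many counts as mt-Atp6 itself.

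Complex I, the NADH dehydrogenase, has 7 mitochondrial subunits, of which 6 are read from the plus strand. Of these 6, 0 passed the test in edgeR or DESeq2, and 1, mt-Nd3, had an unadjusted edgeR p under 0.05. The mRNA of mt-Nd1 (chrMT:2751-3707) had 2722, 2235 and 2299 FPKM in LOXP and 2623, 2404 and 2176 in KO (difference -0.04, SE 0.09). The mRNA of mt-Nd2 (chrMT:3914-4951) had 2204, 1792 and 1807 FPKM in LOXP and 2230, 2074 and 1907 in KO (difference 0.06, SE 0.09). In both genes the library LOXP1 lay among or above the KO libraries and the groups overlapped.

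The short mRNA of mt-Nd3 (chrMT:9459-9806) had 207, 184 and 183 FPKM in LOXP and 232, 222 and 214 in KO. Its groups were separate, but the difference of 0.19 (SE 0.07, edgeR adjusted p = 0.104) did not pass. The mRNAs of mt-Nd4l (chrMT:9877-10173) and mt-Nd4 (chrMT:10167-11544) share 7 bases and 1 bicistronic transcript. Values for mt-Nd4l were 3773, 3219 and 3307 FPKM in LOXP and 3816, 3456 and 3482 in KO (difference 0.03, SE 0.07). For mt-Nd4 they were 3207, 2597 and 2595 FPKM in LOXP and 2969, 2682 and 2453 in KO (difference -0.09, SE 0.10). Both overlapped between the groups.

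The mRNA of mt-Nd5 (chrMT:11742-13565), the plus-strand neighbour of mt-Nd6, had 2551, 2156 and 2122 FPKM in LOXP and 2255, 2110 and 1974 in KO (difference -0.14, SE 0.08, edgeR adjusted p = 0.232). The groups overlapped. Complex III has a single mitochondrial subunit, cytochrome b, read from mt-Cytb (chrMT:14145-15288). It had 2012, 1862 and 1899 FPKM in LOXP and 2217, 2115 and 1970 in KO, with the lowest KO library inside the LOXP range (difference 0.09, SE 0.06, edgeR adjusted p = 0.289).

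The only mRNA of the minus strand, mt-Nd6 (chrMT:13552-14070), which encodes a complex I subunit, was lower in KO. It had 103, 57.7 and 59.1 FPKM in LOXP and 34.6, 32.8 and 25.9 in KO. All KO libraries lay below all LOXP libraries, and LOXP1 lay well above the other two LOXP libraries. The change was -1.27 (SE 0.23, edgeR adjusted p = 0.00539), so that the fitted level fell by 58.5%. Without LOXP1 it was -0.95 with an edgeR adjusted p of 0.0037. It was the least abundant mRNA, with 226 to 853 counts a library. Its annotated strand held 22.2% A, the least of the 18 tested members, against 29.0% to 40.7% in the others.

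Of the 14 plus-strand tRNAs 3 had enough counts to be tested: mt-Tl1 (75 bases), mt-Tm (69) and mt-Tw (67). All 3 are shorter than a sequenced read, so their counts can include reads that run into a neighbouring gene. Whether the tRNAs cut from the precursor RNA changed was not tested. The leucine tRNA mt-Tl1, which directly follows mt-Rnr2, had 270, 205 and 232 counts in LOXP (227, 186 and 202 FPKM) and 198, 222 and 211 in KO (170, 160 and 168 FPKM). The FPKM groups were separate, and the change was -0.34 (SE 0.10, edgeR adjusted p = 0.0463). This call was lost on leaving out LOXP1, LOXP3, KO1, KO2 or KO3, with adjusted p-values from 0.0906 to 0.137, and was kept only without LOXP2. The methionine tRNA mt-Tm (chrMT:3845-3913) had 73, 56 and 74 counts in LOXP and 59, 61 and 51 in KO, with separate scaled values and a difference of -0.42 (SE 0.18, edgeR adjusted p = 0.129). The tryptophan tRNA mt-Tw had 26, 24 and 29 counts in LOXP and 9, 11 and 11 in KO. Its values were separate, with a change of -1.52 (SE 0.26, edgeR adjusted p = 0.00454), and with 10 counts required in every library it could not be tested.

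The other 19 tRNAs had at most 22 counts in any library. They were mt-Tf, mt-Tv, mt-Ti, mt-Td, mt-Tk, mt-Tg, mt-Tr, mt-Th, mt-Ts2, mt-Tl2 and mt-Tt on the plus strand and mt-Tq, mt-Ta, mt-Tn, mt-Tc, mt-Ty, mt-Ts1, mt-Te and mt-Tp on the minus strand. Together they had 84, 50 and 55 counts in LOXP and 33, 41 and 35 in KO. Summed over libraries 18 of the 19 had more counts in LOXP, 1 had equal counts and 0 had more in KO, although the KO libraries held more counted reads in all. Of all 14151 tested genes 7112 had a point estimate below 0, and no tally was made for other untested genes. Most differences were of a few counts, and genes that touch can share reads, so the 19 are not separate observations. The serine tRNA mt-Ts2 had 1, 1 and 0 counts in LOXP and 0 in all 3 KO libraries, which allows up to 3 counts over the group. The 8 minus-strand tRNAs reached at most 4 counts each, so that mt-Nd6 alone stood for its strand. Genes of this length, the 3 tested tRNAs included, are shorter than the 150-base reads. No change of a single one of these 19 was read from the counts.

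**Figure D3:**
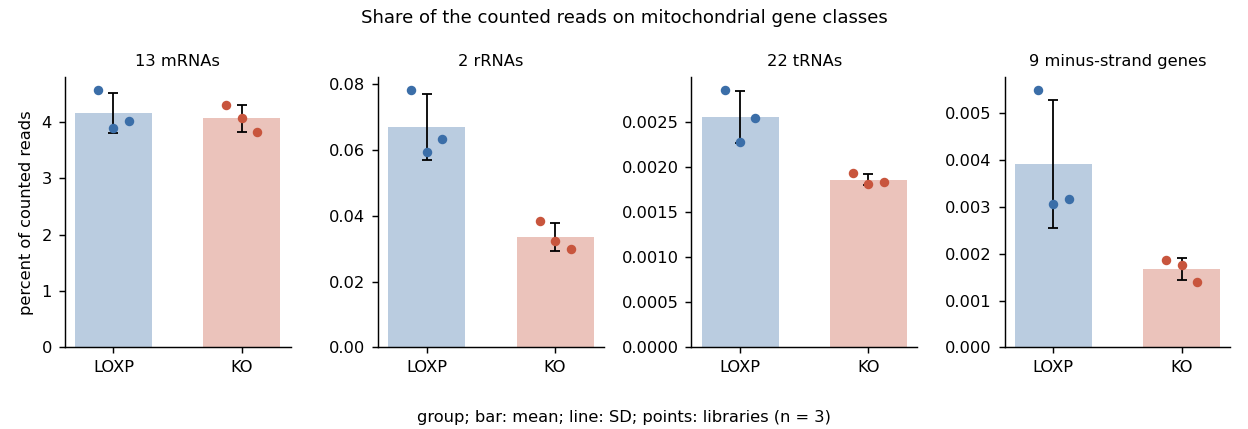
Percent of all counted reads (vertical axes, each from 0) on the 13 mRNAs, the 2 rRNAs, the 22 tRNAs and the 9 minus-strand genes, with bars for group means, lines for the SD and points for the 3 libraries a group. The groups overlap for the mRNAs and are separate for the other 3 classes.

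As a share of all counted reads the mitochondrial chromosome took 4.65%, 3.96% and 4.08% in LOXP and 4.34%, 4.11% and 3.86% in KO, and the groups overlapped (4.23 ± 0.37% against 4.10 ± 0.24%, mean ± SD, n = 3). The mRNAs made up 98.3% to 99.2% of these reads and mt-Co1 alone 45.1% to 49.9%. The rRNAs took 0.0781%, 0.0593% and 0.0632% of all counted reads in LOXP and 0.0383%, 0.0322% and 0.0300% in KO. The KO mean was 0.501 times the LOXP mean and the libraries did not overlap. The tRNAs took 0.00256 ± 0.00029% in LOXP and 0.00186 ± 0.00006% in KO, again without overlap. The minus-strand genes took 0.00392 ± 0.00137% and 0.00168 ± 0.00024%, and mt-Nd6 supplied 2585 of their 2666 counts. The half-width of the 95% Wilson interval of a library's share was at most 0.251% of the share for all members, 2.76% for the rRNAs, 11.4% for the tRNAs and 12.8% for the minus-strand genes, which covers counting error only.

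**Figure D4:**
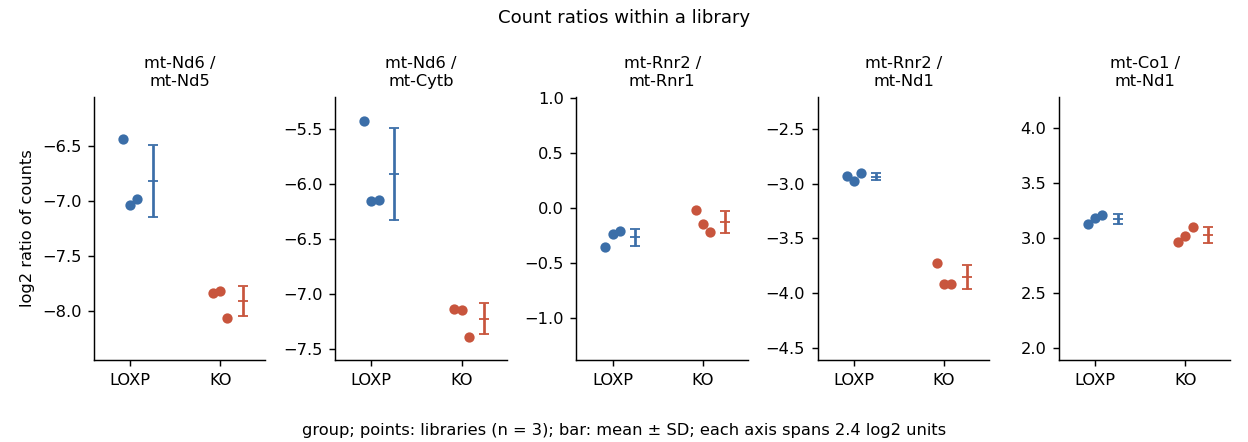
log2 ratio of the counts of 5 pairs of mitochondrial genes within each library (points, 3 a group) with the mean and SD beside them, each vertical axis spanning the same range. The groups are separate in every pair but mt-Rnr2/mt-Rnr1, and the gap is widest for the pairs with mt-Nd6 and for mt-Rnr2/mt-Nd1.

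Ratios within a library do not depend on how libraries are scaled. For every 100 counts of mt-Nd5 there were 1.15, 0.761 and 0.792 counts of mt-Nd6 in LOXP and 0.437, 0.443 and 0.374 in KO. The libraries were separate, with a log2 difference of -1.09 (SE 0.21). Against mt-Cytb, its plus-strand neighbour on the other side, the difference of mt-Nd6 was -1.32 (SE 0.26). For every 100 counts of mt-Nd1, the mRNA that follows the rRNAs on the same strand, there were 13.1, 12.7 and 13.3 counts of mt-Rnr2 in LOXP and 7.57, 6.65 and 6.65 in KO. That log2 difference was -0.91 (SE 0.07), and LOXP1, the highest library in both genes, lay with the other LOXP libraries here.

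The other pairs differed less. The ratio of mt-Co1 to mt-Nd1 was lower in KO by a log2 difference of -0.14 (SE 0.05), with separate groups. The ratio of the large to the small rRNA was 78.1, 84.7 and 86.6 counts of mt-Rnr2 for every 100 of mt-Rnr1 in LOXP and 98.6, 90.2 and 85.7 in KO. These overlapped, at a log2 difference of 0.14 (SE 0.07, exact two-sided permutation p = 0.20, adjusted over the 5 pairs 0.20). In each of the 4 other pairs the exact two-sided permutation p was 0.1, the smallest that 3 libraries against 3 can give, and 0.125 adjusted over the 5 pairs, so the threshold of 0.05 could not be reached.

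Several mRNAs share reads with nuclear copies of mitochondrial DNA. Windows of 50 bases were compared between the members and nuclear genes of the reference, and 7 unprocessed pseudogenes on chromosome 1 had at least 90% of their windows in a member. They matched mt-Atp6, mt-Co1, mt-Co2, mt-Co3, mt-Nd3, mt-Nd4 and mt-Nd4l, and together they had 4.12% to 5.15% as many counts as the mitochondrial mRNAs. Each nuclear gene was listed only under the member with which it shared most windows. None was listed under mt-Rnr1, mt-Nd6, mt-Atp8 or any tRNA, and the one listed under mt-Rnr2 had 0 counts. Nuclear DNA outside annotated genes was not searched, so unlisted copies of these members, mt-Atp8 included, are not excluded. Among the 7 near-identical copies Gm10925 had 83.6% to 98.8% as many counts as mt-Atp6, so the level of mt-Atp6 depends on how the reads were assigned.

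Of the copies, 3 passed the test, 2 higher and 1 lower, while 11.5% of all tested genes rose and 11.6% fell. Gm28437, a copy of mt-Co3, had 4985, 3864 and 4475 counts in LOXP and 6895, 7711 and 6002 in KO (log2 change 0.45, SE 0.09). Gm28661, a copy of mt-Co2, rose by 0.57 (SE 0.09, edgeR adjusted p = 0.00264), although mt-Co2 itself did not pass. Gm29216, a copy of mt-Co1, fell by 0.29 on the log2 scale (SE 0.07, edgeR adjusted p = 0.0205), and that call was lost without LOXP1, LOXP3, KO2 or KO3. With the 7 copies added to their members, mt-Co3 was at 0.46 (SE 0.06, edgeR adjusted p = 0.0013), mt-Co2 at 0.13 (SE 0.07) and mt-Co1 at -0.19 (SE 0.06, edgeR adjusted p = 0.0541).

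Nuclear genes supply most subunits of the same enzymes. Of 73 such subunit genes, all tested, 0 rose and 6 fell in edgeR, with a median log2 change of -0.06, 1 higher and 12 lower at an unadjusted p under 0.05, and 0 higher and 4 lower in DESeq2. In complex I 4 of 36 fell, among them Ndufa6 (-0.36, SE 0.06), Ndufb9 (-0.33, SE 0.06) and Ndufa3 (-0.30, SE 0.09). In complex IV 1 of 11 fell, Cox7a2 (-0.19, SE 0.06). In ATP synthase 1 of 17 fell, Atp5mk (-0.42, SE 0.12), and of the 9 of complex III, 0 passed in edgeR or DESeq2 and 1 had an unadjusted p under 0.05. Over all 73, 0 rose and 8.22% fell, beside 11.5% and 11.6% of all tested genes. In complex I the share that fell was 11.1%, near that of all tested genes. A point estimate below 0 was found for 53 of the 73 and for 7112 of the 14151 tested genes. Leaving out 1 library kept the call in 6 of 6 refits for Ndufa6 and Ndufb9, in 1 for Ndufa3, 0 for Cox7a2 and 2 for Atp5mk.

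Of 54 nuclear genes that copy, transcribe, process or stabilise mitochondrial nucleic acids, 53 were tested, 8 rose and 1 fell in edgeR, with a median of 0.11, and 7 rose and 0 fell in DESeq2. The edgeR calls were 15.1% higher and 1.89% lower, beside 11.5% and 11.6% of all tested genes. Among transcription factors of mtDNA 1 of 9 rose, Mrpl12, a ribosomal protein reported to bind the polymerase (0.28, SE 0.07). The RNA polymerase Polrmt was at 4.92 FPKM in LOXP and 5.45 in KO (difference 0.11, SE 0.08), and the packaging and promoter factor Tfam at 7.97 and 7.73 (-0.08, SE 0.08). The promoter-melting factor Tfb2m (0.04, SE 0.08) and the elongation factor Tefm (0.24, SE 0.13) did not pass either. In replication 2 of 11 rose, the single-strand binding protein Ssbp1 (0.24, SE 0.07) and the ligase Lig3 (0.23, SE 0.06), and 1 fell, the polymerase accessory subunit Polg2 (-0.51, SE 0.16). The polymerase Polg (0.06, SE 0.10) and the helicase Twnk (0.10, SE 0.09) did not pass. The calls of Ssbp1, Lig3 and Polg2 were each lost on leaving out any 1 library, and that of Mrpl12 on leaving out any but LOXP3 or KO1.

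Of the 17 genes of mitochondrial RNA processing and modification 2 rose. The pseudouridine synthase Pus1 had 20.6, 22.7 and 22.7 FPKM in LOXP and 35.7, 37.3 and 37.8 in KO, with separate groups and a change of 0.71 (SE 0.07, edgeR adjusted p = 0.000326). Elac2, which cuts the 3′ end of tRNAs, was at 0.34 (SE 0.09), and its call was lost on leaving out any library but LOXP1 or KO1. Of the 16 genes of RNA stability and decay 3 rose. Fastkd3, of a family that acts on mitochondrial mRNAs, had 1.13, 0.664 and 1.47 FPKM in LOXP and 2.12, 2.31 and 2.28 in KO (1.01, SE 0.23, edgeR adjusted p = 0.0149). Ptcd2 was at 0.40 (SE 0.08) and Pde12, a poly(A)-specific phosphodiesterase, at 0.31 (SE 0.07). The call of Pde12 was lost only without KO1 (edgeR adjusted p = 0.0508). Lrpprc and Slirp, which together bind mitochondrial mRNAs, were at 0.04 (SE 0.05) and -0.22 (SE 0.17) and did not pass.

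Some cell type markers, though not those of every type, differed between the genotypes as well. Over all tested genes 11.5% rose and 11.6% fell. Of the 11 hepatocyte markers found 8 fell and 0 rose in edgeR and in DESeq2, with 0 higher at an unadjusted p under 0.05, with Alb at -0.27 (SE 0.04, edgeR adjusted p = 0.00319), and their summed level was 10889 to 11391 FPKM in LOXP and 9512 to 9584 in KO. The summed macrophage and Kupffer cell markers were at 64.6 to 77.6 and 47.0 to 55.3 FPKM, with 2 of 11 tested lower, Cd68 (-0.87) and Mpeg1 (-0.69), and Lyz2 at 0.18. The lower sum rested largely on these 2 called genes. Cd68 had means of 37.5 FPKM in LOXP and 21.1 in KO, and Mpeg1 of 6.70 and 4.26. Of the 11 tested, 7 had a point estimate below 0. The cholangiocyte markers were at 24.3 to 27.7 FPKM in LOXP and 14.2 to 15.99 in KO, with 1 higher and 2 lower of 4 tested in edgeR, Krt19 at 0.82 (edgeR adjusted p = 0.0479), Sox9 at -0.87 and Spp1 at -2.04. In DESeq2 0 of these rose and 2 fell. The sinusoidal endothelial markers, led by Cdh5 (0.01), Lyve1 (-0.20) and Eng (-0.06), were at 30.2 to 32.7 and 28.4 to 30.8 FPKM, with 0 higher and 1 lower of 9 tested in edgeR, Stab2 (-0.49, edgeR adjusted p = 0.00445), and also 0 and 1 in DESeq2. The 1 endothelial call is 11.1% of the 9 tested, near the 11.6% of all tested genes. Krt19 and Stab2 were named after their values were seen. The markers of stellate cells and fibroblasts, led by Dcn (0.16), Acta2 (0.23) and Pdgfrb (0.10), were at 6.16 to 6.48 and 6.73 to 7.62 FPKM, with 0 of 8 past the test in edgeR or DESeq2 and 1 higher at an unadjusted p under 0.05. The 8 lymphocyte markers, Cd79a, Cd4 and Cd8a among them, were at 0 in all libraries, and the 7 neutrophil markers, Csf3r, S100a9 and S100a8 among them, stayed at or below 0.859 FPKM summed. In bulk RNA fewer cells of a type and less RNA per cell cannot be told apart. The part of these differences in the changes of the mitochondrial genes was not tested.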

How the data were processed

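RNA was extracted with TRIzol, libraries were made with the VAHTS Universal V6 kit and sequenced as 150-base read pairs. The submitters' processing notes name fastp, HISAT2, StringTie and edgeR and the build GRCm39, without versions. The counting tool, the annotation, the strand setting and the RNA selection step are not given in the sources used here. The deposited table holds raw counts per gene, made by the authors from mapped reads, and FPKM, which the authors computed per kilobase and scaled to the counted reads. For the members with 10 counts or more the FPKM equalled the count divided by gene length and total count within 0.00485%, so both units carry the same information. A total of 6 libraries in 2 groups entered, grouped by genotype label, and all value columns were mapped to a library.

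Counts as deposited were fitted with edgeR 4.0.16 (R 4.3.3): filterByExpr by group with a minimum count of 10, TMM factors, the quasi-likelihood F test (two-sided) and Benjamini-Hochberg adjustment over the 14151 genes tested. Log2 changes are KO minus LOXP. The SE beside an edgeR change was derived from the test, as the absolute log2 change divided by the square root of the F statistic. On counts simulated from these libraries, with 13964 genes in the step, the fit recovered 89.3% of 197 changed genes. Ratios of gene pairs were compared by an exact two-sided permutation test over libraries. Shares of counted reads are given without a test. A nuclear gene counted as a near-identical copy where at least 90% of its windows of 50 bases occurred in a member.

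Alternatives were other scalings (RLE, upper quartile, TMM without the mitochondrial genes, the mitochondrial total), DESeq2 1.42.0, the edgeR exact test, other filters, limma 3.58.1 on log2(FPKM + 1) and log2(FPKM + 0.1), the replicate number as a block, each library left out, and, chosen after the data were seen, nuclear copies added. The members, gene lists and tests were chosen with earlier results of these data known. Named were Sting1, every member (tRNAs with values where tested), 8 factors of mtDNA and mitochondrial RNA, up to 3 called genes of each list with the largest change, and, for every cell type, its 3 markers with the highest level, of which 1 is not reported here. No list was given a set test.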

Additional observations from a re-analysis of the deposited data

How the results depend on the processing

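Under 18 alternatives mt-Rnr1, mt-Rnr2, mt-Nd6, mt-Atp8 and mt-Co3 kept their direction and an adjusted p under 0.05 in every one, and mt-Tw did in the 17 in which it could be tested. In the main fit mt-Tw had entered through its LOXP counts alone. The call of mt-Tl1 held in 8 of 18. Other members passed the test only under an alternative: mt-Co1 with upper-quartile scaling (adjusted p = 0.0447), and mt-Nd3 and mt-Tm with limma on log2(FPKM + 1) and log2(FPKM + 0.1). The cause was not tested. Sign changes occurred only in genes near 0: mt-Nd1 was at 0.033 with the mitochondrial total as library size, 0.038 without LOXP1 and 0.031 without KO3, mt-Nd4 at 0.012 without LOXP1 (down to -0.16 without KO1), and mt-Nd4l at -0.0051 without LOXP2, -0.0012 without LOXP3 and -0.017 without KO1 (up to 0.090 without LOXP1). The number of genes passing over the whole table, 3274, was 2181 with the mitochondrial total as library size and 1974 to 3025 on leaving out a library (2146 without KO1, 1974 without KO2), where fewer libraries were fitted. Leaving out a library left 2 members higher and 4 to 5 lower. The log2 ratio of the mitochondrial share between the groups, -0.04 over counts, was 0.074 over summed FPKM, which weights short genes more, and ran from -0.09 to 0.03 on leaving out a library. The pair differences ran from -1.20 to -0.90 for mt-Nd6/mt-Nd5, -1.44 to -1.08 for mt-Nd6/mt-Cytb, -0.97 to -0.88 for mt-Rnr2/mt-Nd1, -0.18 to -0.11 for mt-Co1/mt-Nd1 and 0.08 to 0.18 for mt-Rnr2/mt-Rnr1.

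The values did not settle whether the replicate numbers pair the libraries. Deviations of same-numbered libraries correlated at 0.12, 0.0834 and 0.0134. Those of LOXP and KO libraries with different numbers correlated at -0.1311 to 0.0459. Each KO library correlated best with the LOXP library of its number, while LOXP3 correlated better with KO2 (0.0459) than with KO3. With the replicate block 3235 genes passed the test, 2 members were higher and 6 lower: mt-Tl1 lost its call (adjusted p = 0.0621), and mt-Co1 (0.0134) and mt-Nd5 (0.0347) gained one. The pair differences under the replicate block were the same means, since the groups are balanced.

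Depth limits the tRNAs, 19 of which could not be tested, and the minus strand, of which mt-Nd6 alone was. All p-values rest on 3 libraries a group.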

Other observations

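Genes of other noncoding RNA types, a group chosen by type label after the data were seen, gave these values. Whether their RNAs carry a poly(A) tail was not checked. The genes typed snoRNA, misc_RNA, rRNA, ribozyme, snRNA or scaRNA in the table numbered 3877, of which 23 were tested. Of these 1 rose and 1 fell, 4.35% each, beside 11.5% and 11.6% of all tested genes. Their median log2 change was 0.13. Of 16 tested snoRNAs 0 rose and 0 fell in edgeR or DESeq2 and 0 had an unadjusted p under 0.05, with changes from -0.55 to 0.64 and a median of 0.16. Rn18s-rs5, a copy of the cytosolic small-subunit rRNA, had 521, 481 and 498 counts in LOXP and 654, 479 and 310 in KO (-0.22, SE 0.25, edgeR adjusted p = 0.581). Rpph1, the RNA of nuclear RNase P, had 11, 11 and 24 counts in LOXP and 41, 55 and 47 in KO (1.45, SE 0.32, edgeR adjusted p = 0.0136), a call that was lost without KO2 (adjusted p = 0.051). Gm55524 had 127, 141 and 137 counts in LOXP and 1, 47 and 50 in KO (-2.25, SE 0.59, edgeR adjusted p = 0.026), and its call was lost without LOXP2, LOXP3 or KO2 and, among other alternatives, with DESeq2. Their part in the changes of the mitochondrial rRNAs was not tested.

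Across the 18 tested members the mean level in FPKM and the log2 change had a Spearman correlation of 0.57, and across the 12 plus-strand mRNAs of -0.30. The points share the same 6 libraries, and no test was made.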
